A study of Mus musculus with 12 samples.

Results

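Mouse embryos that had resumed division after a drug-induced arrest, and had reached the morula to blastocyst stage at day 4.5, were compared with undisturbed embryos at day 3.5. The day 3.5 embryos were labelled with the same range of stages. The comparison used 4 of the 12 microarrays in the study, chosen by their labels alone: 2 arrays of released day 4.5 embryos and 2 arrays of control day 3.5 embryos. All embryos came from ICR mice, an outbred strain. Released embryos had been held at the 4-cell stage with 20 µM U0126, an inhibitor of MEK, the kinase that activates ERK, and had then been freed from the arrest. Control day 3.5 embryos had no U0126. The other groups, also with 2 arrays each, were embryos under U0126 at day 2.5, released embryos at day 3.5 (8 cells), and control embryos at day 1.5 (2 cells) and day 2.5 (4 to 8 cells). Controls of day 4.5 were not analysed here. Earlier U0126 exposure, 1 more day of age and a different mix of morulae and blastocysts therefore cannot be told apart in any difference reported below.

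At the blastocyst stage the mouse embryo consists of an outer epithelium, the trophectoderm, which will make contact with the uterus and form the placenta, and an inner cell mass. The inner cell mass separates into the epiblast, which gives rise to the fetus, and the primitive endoderm, an epithelium that lays down basement membrane. FGF4 from the inner cells signals through FGF receptors and the ERK kinases, and this signal favours the primitive endoderm over the epiblast. As the blastocyst nears implantation, the trophectoderm switches on further transcription factors and adhesion, transport and signalling genes.

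Levels are given as log2(intensity + 1) of the deposited values, and every difference is released day 4.5 minus control day 3.5 on that scale. A level under 5 was treated as close to background, and where 1 group of the comparison averaged under 5 the difference counted from 5 is also given as a bound ("at least", or "counted from 5" for a fall). Where both groups averaged under 5 this is said and no bound is given. Of 18193 named genes, 9929 reached a level of 5 on at least 2 of the 12 arrays and were tested with limma over all 12 arrays. Of these, 82 reached 5 on the released day 4.5 arrays only, and 9 on the control day 3.5 arrays only. Such genes could enter the test only by being high in that group, and 52 of the 82 are among the genes called higher below, with Elf5, Plac1, Lifr, Lif, Bmp4, Sox17, Lama1, Nid2, Slc7a8 and Wnt6 among those named. A gene was called at a Benjamini-Hochberg adjusted p under 0.05. The labels do not say that the arrays of a group came from separate cultures or animals, although the series text speaks of 2 independent experiments, so the p-values reflect only how far these samples vary, a variation that may be technical. The arrays hold RNA of whole embryos, and fewer cells of a type and less RNA per cell cannot be told apart.

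Of the 9929 genes tested, 584 (5.88%) were called: 382 (3.85%) were higher and 202 (2.03%) lower in released day 4.5 than in control day 3.5 embryos. The 3.85% and 2.03% are the background for the list counts below. The median difference was 1.84 among the genes called higher, -1.59 among those called lower and -0.03 over all tested genes. At an unadjusted p under 0.05 there were 2065 genes. In all 584 called genes the arrays of the groups did not overlap, a separation that 26.3% of all tested genes showed with released embryos higher and 29.7% with released embryos lower. With the replicate number as a block, 1017 genes (10.2%) were called, 576 higher (5.8%) and 441 lower (4.44%), and these included all 584. The arrays of released day 4.5 correlated with each other at r = 0.980 across genes and those of control day 3.5 at r = 0.978. Between the groups r was 0.960 and 0.950 with control replicate 1, and 0.929 and 0.930 with control replicate 2, so released embryos lay nearer to control replicate 1. Among the 382 genes called higher, control replicate 1 lay above control replicate 2 in 313 (median gap 0.42). Among the 202 called lower it did so in 31 (median gap -0.35). The count of calls was 84 (70 higher, 14 lower) without control replicate 2, against 541 (356 higher, 185 lower) without control replicate 1. It was 150 without released replicate 1 and 127 without released replicate 2.

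**Figure D1:**
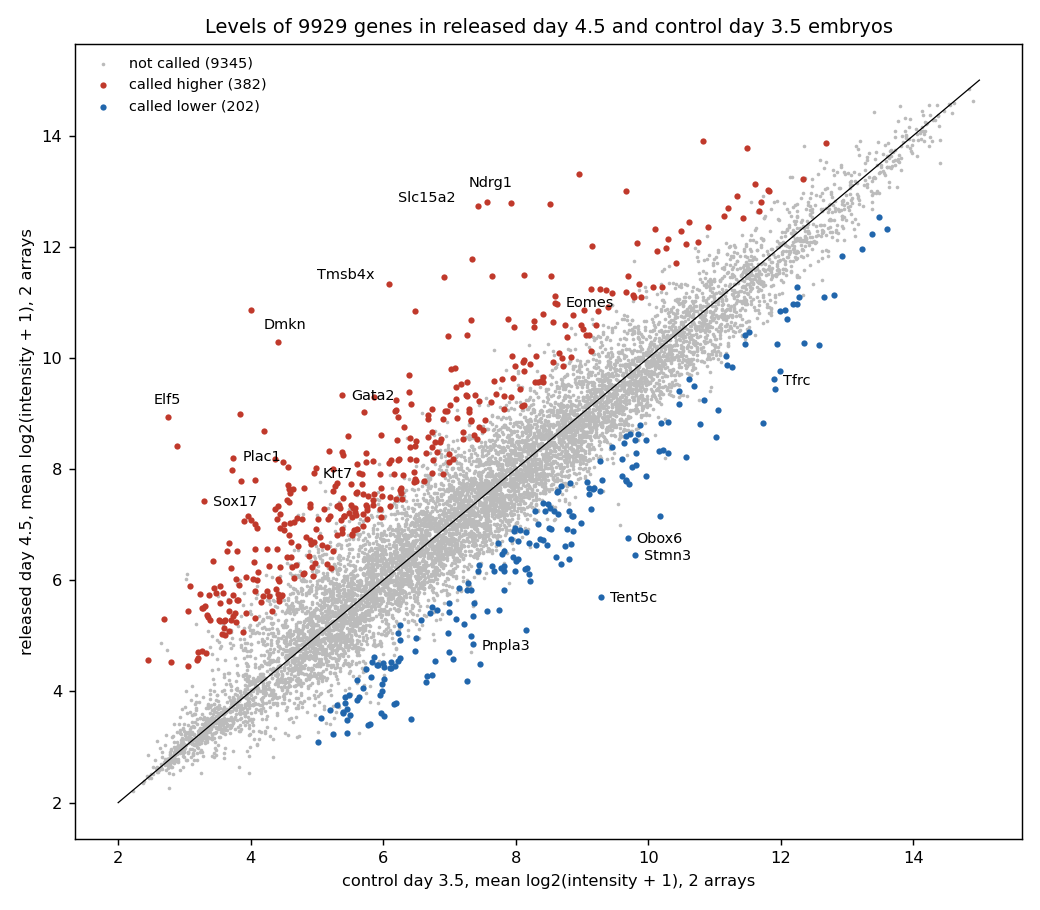
Mean level of each tested gene over 2 released day 4.5 arrays (vertical axis) against its mean over 2 control day 3.5 arrays (horizontal axis), both as log2(intensity + 1). The line marks equal levels. The 382 genes called higher in released embryos are red and the 202 called lower are blue, and Elf5, Dmkn and Plac1 lie farthest above the line near the left edge among the genes labelled.

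The largest rises were in genes of varied function, among them transporters, actin-binding proteins and transcription factors. Slc15a2, a proton-coupled transporter of small peptides, had levels of 12.61 and 12.87 on the released arrays, against 7.72 and 7.15 on the control arrays, a difference of 5.31 ± 0.55 (SE, adjusted p = 0.00104). Dmkn, which encodes the secreted epithelial protein dermokine, had 10.15 and 10.43 in released embryos, against 4.31 and 4.54 in controls (5.87 ± 0.38, at least 5.29, adjusted p = 6.47e-05). Tmsb4x, which encodes the actin-sequestering peptide thymosin beta 4, had 11.37 and 11.30 in released embryos, against 6.38 and 5.79 in controls (5.24 ± 0.37, adjusted p = 6.60e-05). In each of these genes both released arrays stood at least 4 units above the higher control array. The carnitine transporter gene Slc22a5 (4.54 ± 0.52), the scaffold gene Pdzk1 of apical membrane transporters (4.35 ± 0.60) and AA467197 (4.45 ± 0.41) rose by similar amounts. So did the actin-bundling gene Lcp1 (4.27 ± 0.68) and the alcohol and retinol dehydrogenase gene Adh1 (4.36 ± 0.85), whereas the actin-capping gene Capg rose by 3.43 ± 0.58. Mbnl3, a splicing regulator, rose by 3.83 ± 0.39, and Gulp1, an adaptor in the engulfment of cells, by 4.48 ± 0.53 (at least 3.67). Adh1, Lcp1, Capg and AF067061 lost their calls when single arrays were left out, while their differences stayed between 3.15 and 6.38. Without control replicate 2 their adjusted p ranged from 0.0781 to 0.178. Without released replicate 1 it was 0.0656 to 0.0973 for Adh1, Capg and AF067061, and without released replicate 2 it was 0.0563 to 0.109 for Adh1, Lcp1 and Capg. AF067061 differed between the released arrays, at 10.22 and 7.77, against 3.42 and 4.27 in controls (5.15 ± 0.95, at least 3.99), and its adjusted p was 0.0571 without control replicate 1. It was higher still at released day 3.5, at 12.39 and 12.77, and it is read by a probe set of a type whose probes can also match related sequences.

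Promoter sequences were searched for a set of short motifs, as a description only. TGANTCA among them is bound by AP-1, the factor made of Fos and Jun proteins, which acts downstream of ERK. RefSeq promoters (build GRCm38.p6, 250 bases before to 50 after a gene's start) were matched by symbol for 313 of the 382 genes called higher, which had 419 promoters. The letters TGANTCA, whose reverse complement is the same pattern, stood in 41 of these (9.79%), in 9 of 215 promoters of genes called lower (4.19%), in 4.95% of promoters of all tested genes and in 7.81% of all 32851 RefSeq promoters. CACGTG stood in 8.83% of promoters of genes called higher, against 10.4% of all tested, TGACGT in 8.59% against 11.6%, GGAATG in 12.4% against 11.7%, CCAAT in 33.9% against 38.5% and GGGCGG in 61.8% against 63.1%, each searched on both strands, and matches of TGACGT and CACGTG can share letters. A match of letters is a description and not a site of binding, and a role of AP-1 or ERK was not tested. Sequences are printed for TGANTCA only. The sequences below are from genes in which released embryos were higher and whose promoter holds the motif, namely the largest rises with a match (Dmkn, from separate starts, and AA467197) and Lif, a cytokine gene described further on. The capitals mark TGANTCA, which begins 89 and 82 bases before the starts of Dmkn, 73 before that of AA467197 and 228 before that of Lif.
Dmkn, chr7:30763506-30763805, plus strand: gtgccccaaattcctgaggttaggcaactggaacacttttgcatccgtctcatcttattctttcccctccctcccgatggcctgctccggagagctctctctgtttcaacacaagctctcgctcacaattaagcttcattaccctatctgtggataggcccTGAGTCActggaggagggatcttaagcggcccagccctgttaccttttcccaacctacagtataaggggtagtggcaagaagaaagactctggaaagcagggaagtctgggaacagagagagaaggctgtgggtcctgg
Dmkn, chr7:30776155-30776454, plus strand: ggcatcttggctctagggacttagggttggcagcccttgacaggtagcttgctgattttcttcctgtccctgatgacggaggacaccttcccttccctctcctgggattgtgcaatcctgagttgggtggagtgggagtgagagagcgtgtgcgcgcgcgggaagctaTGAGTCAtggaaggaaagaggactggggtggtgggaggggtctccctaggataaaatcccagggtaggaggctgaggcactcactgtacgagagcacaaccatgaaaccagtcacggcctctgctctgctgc
AA467197, chr2:122637637-122637936, plus strand: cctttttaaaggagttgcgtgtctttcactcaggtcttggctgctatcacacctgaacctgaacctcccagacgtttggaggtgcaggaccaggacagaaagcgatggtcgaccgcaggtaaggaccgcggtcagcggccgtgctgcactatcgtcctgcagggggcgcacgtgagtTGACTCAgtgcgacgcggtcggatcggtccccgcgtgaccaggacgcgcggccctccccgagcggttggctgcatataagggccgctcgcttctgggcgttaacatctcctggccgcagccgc
Lif, chr11:4257318-4257617, plus strand: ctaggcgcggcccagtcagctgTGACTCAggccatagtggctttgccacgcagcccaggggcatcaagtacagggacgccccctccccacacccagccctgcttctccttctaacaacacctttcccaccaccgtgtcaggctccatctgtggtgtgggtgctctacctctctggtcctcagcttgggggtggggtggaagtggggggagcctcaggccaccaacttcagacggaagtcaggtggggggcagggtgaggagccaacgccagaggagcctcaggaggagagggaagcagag
The Fos and Jun genes that were tested were not called, and Fosb, Fosl1 and Junb did not enter the test. Fos had 5.92 and 5.82 in released embryos, against 5.32 and 4.79 in controls (0.81 ± 0.37, adjusted p = 0.244), and Fosl2 differed by 1.03 ± 0.31 (adjusted p = 0.0821). Jun and Jund, at 0.05 ± 0.33 and 0.17 ± 0.27, had adjusted p of 0.967 and 0.812.

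Transcription factors and markers of the trophectoderm had, with the genes of its later phase, the highest share of calls among the lineage lists. Of 21 tested genes of the trophectoderm list, 6 were called higher and 0 lower, against 3.85% and 2.03% of all tested genes, and the median difference was 1.13. Those called were Elf5, Gata2, Tmprss2, Tspan8, Krt7 and Eomes. Elf5, a transcription factor of the trophoblast stem cell state, had 8.15 and 9.73 in released embryos, against 2.77 and 2.73 in controls (6.19 ± 0.42, at least 3.94, adjusted p = 6.47e-05). All 10 other arrays of the study lay under 5 for Elf5, which entered the test through its released day 4.5 arrays alone. Gata2, a regulator of placental hormone genes, had 8.95 and 9.74 in released embryos, against 5.96 and 4.80 in controls (3.96 ± 0.47, adjusted p = 0.00165, and 2.45 on another probe set). Krt7, a keratin of simple epithelia and trophoblast, had 8.36 and 7.49 in released embryos, against 4.89 and 5.01 in controls (2.97 ± 0.32, at least 2.92, adjusted p = 0.00109). Eomes, which maintains trophoblast stem cells, had 11.23 and 10.98 in released embryos, against 9.19 and 8.00 in controls (2.52 ± 0.64, adjusted p = 0.0466). The protease gene Tmprss2 rose by 3.37 ± 0.56 and the tetraspanin gene Tspan8 by 3.34 ± 0.60. Eomes, Tmprss2 and Tspan8 lost their calls without control replicate 2 (adjusted p from 0.102 to 0.382), released replicate 1 (0.0535 to 0.196) or released replicate 2 (0.0694 to 0.185). The list had 3 genes called higher with any 1 of these arrays left out, and 8 without control replicate 1. With the replicate block 10 were called higher and 1, the Hippo-pathway partner Tead4 (-1.20), lower.

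The factor that specifies trophectoderm and the keratins that mark it early were already high in controls and were not called. Cdx2 had 10.23 and 10.08 in released embryos, against 9.81 and 9.50 in controls (0.50, 95% confidence interval -0.28 to 1.28, adjusted p = 0.476). Gata3 had 11.27 and 10.92 in released embryos, against 10.40 and 9.53 in controls (1.13, interval 0.19 to 2.07, adjusted p = 0.158). Krt8 had 14.58 and 14.26 in released embryos, against 13.84 and 12.98 in controls (1.01, interval 0.08 to 1.94, adjusted p = 0.201), and Krt18 differed by 1.45 (interval 0.15 to 2.74, adjusted p = 0.188). In all 4 genes the released arrays lay above both control arrays, as they did in 26.3% of all tested genes, and the intervals allow differences of up to 1.28 for Cdx2 and 2.74 for Krt18. Embryos labelled morula to blastocyst thus had high levels of these trophectoderm markers in both groups.

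Genes of the later trophectoderm and of implantation had 6 of 21 called higher (28.6%, against 3.85% of all tested genes) and 0 lower (median 0.61). With the replicate block 9 were higher and 1 lower, the transcriptional cofactor gene Cited1 (-2.62, adjusted p = 0.0624 without the block). Plac1, a placental gene on the X chromosome, had 8.43 and 7.99 in released embryos, against 4.10 and 3.38 in controls (4.47 ± 0.35, at least 3.21, adjusted p = 1.42e-04). Ndrg1, a gene of differentiating and of hypoxic cells, had 12.69 and 12.92 in released embryos, against 8.27 and 6.87 in controls (5.24 ± 0.63, adjusted p = 0.00170). Gjb5, a connexin of trophoblast and skin, had 7.99 and 7.46 in released embryos, against 5.25 and 3.88 in controls (3.16 ± 0.46, at least 2.60). Lifr, the receptor of leukaemia inhibitory factor, had 6.09 and 5.71 in released embryos, against 3.07 and 3.12 in controls (2.81 ± 0.41, at least 0.90, adjusted p = 0.00401). The gene of its ligand, Lif, best known from the uterus at implantation, had 5.86 and 5.98 in released embryos, against 3.99 and 3.65 in controls (2.10 ± 0.27, at least 0.92, adjusted p = 0.00227). For both ligand and receptor the released day 4.5 arrays were the only ones of the study to reach 5, which is how these genes entered the test. Basp1 rose by 2.11 ± 0.42, but its adjusted p was 0.184 without control replicate 2, 0.0709 without released replicate 1 and 0.136 without released replicate 2. Igf2, an imprinted growth factor gene, did not enter the test, with 5.09 and 4.91 in released embryos, against 3.53 and 3.29 in controls.

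**Figure D2:**
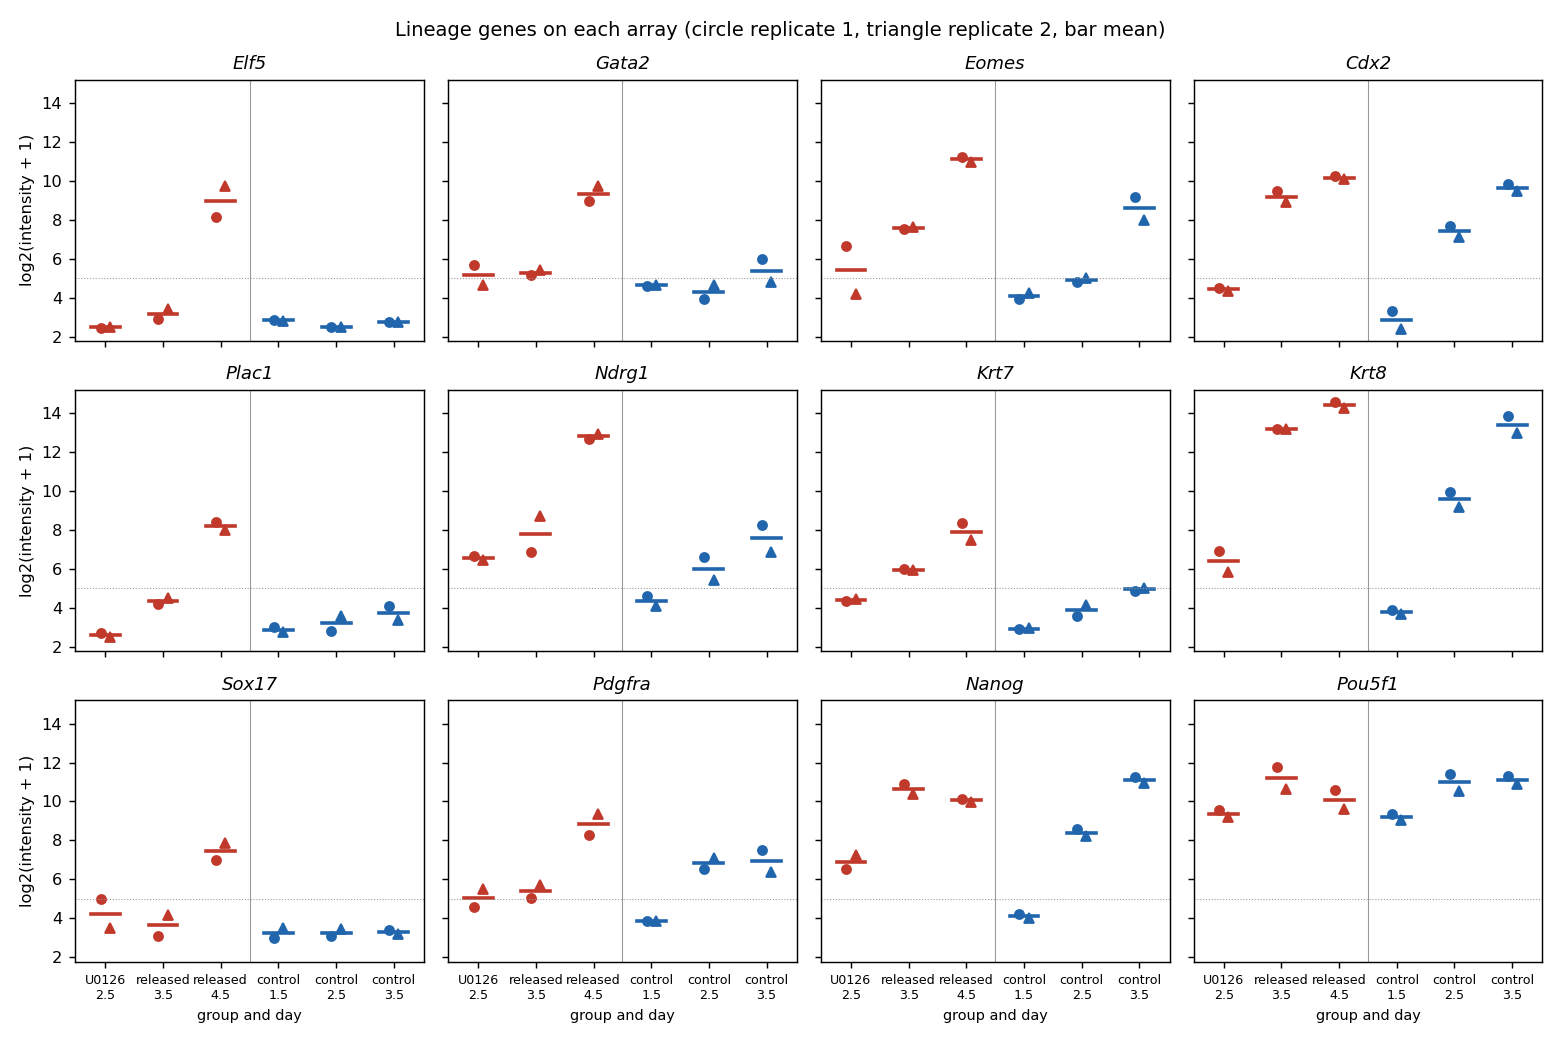
Level of 12 lineage genes, as log2(intensity + 1), on each of the 12 arrays, with the U0126 and released embryos (red) left of the control embryos (blue) and the day under each group. Circles are replicate 1, triangles replicate 2, bars the mean of 2 arrays, and the dotted line is the level of 5. Elf5 and Sox17 rise above the dotted line only in released day 4.5 embryos, whereas Cdx2 and Krt8 lie high in released day 4.5 and control day 3.5 embryos alike.

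Genes of the primitive endoderm and of the basement membrane it makes were also among the rises, and the regulators of the lineage were uneven. Of 20 tested genes of the primitive endoderm list, 4 were called higher (20.0%, against 3.85% of all tested genes) and 0 lower (median 0.59). With the replicate block 6 were higher and 1 lower, again Cited1. Sox17, a transcription factor of endoderm, had 7.0 and 7.87 in released embryos, against 3.38 and 3.21 in controls (4.14 ± 0.51, at least 2.43, adjusted p = 0.00190). Lama1, the laminin alpha chain of the early basement membrane, had 6.72 and 7.47 in released embryos, against 4.91 and 3.09 in controls (3.09 ± 0.49, at least 2.09, adjusted p = 0.00707). Sparc, a matrix glycoprotein of parietal endoderm, had 8.72 and 8.52 in released embryos, against 6.56 and 5.37 in controls (2.66 ± 0.39, adjusted p = 0.00443). Neither Gata6 nor Gata4 was called. Gata6, the factor that starts the lineage, had 10.35 and 9.73 in released embryos, against 10.23 and 10.11 in controls (-0.13, interval -1.09 to 0.83, adjusted p = 0.917). Gata4, which follows Gata6, lay under 5 on all 4 arrays, between 3.51 and 3.60 in released embryos, against 3.17 and 3.44 in controls. Pdgfra, a receptor of the lineage, had 8.30 and 9.38 in released embryos, against 7.52 and 6.39 in controls (1.88 ± 0.49, adjusted p = 0.0521, and 0.0357 with the replicate block). Lama1 lost its call without released replicate 2 (adjusted p = 0.0694), and the list then had 2 genes called higher.

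The extracellular matrix list shares Lama1, Sparc and Serpinh1 with the primitive endoderm list. Of its 23 tested genes, 6 were called higher (26.1%, against 3.85% of all tested genes) and 1 lower (4.35%, against 2.03%), with a median of 0.45. The collagen chaperone gene Serpinh1 rose by 1.76 ± 0.32 (at least 0.44), the basement membrane linker gene Nid2 by 2.24 ± 0.34 (at least 1.03) and the fibronectin gene Fn1 by 1.94 ± 0.40. P4ha1, a subunit of the enzyme that hydroxylates collagen prolines, fell by 1.40 on the log2 scale (SE 0.34, adjusted p = 0.0373). Leaving out released replicate 2 ended the calls of Serpinh1, Fn1 and P4ha1 as well as that of Lama1 (adjusted p from 0.0694 to 0.264). Leaving out control replicate 2 ended those of Serpinh1, Nid2, Fn1 and P4ha1 (0.0511 to 0.184), and leaving out released replicate 1 those of Serpinh1, Fn1 and P4ha1 (0.0605 to 0.0817). P4ha1 also lost its call without control replicate 1 (0.147). The count of matrix genes called higher fell to 2 without control replicate 2, 3 without released replicate 1 and 2 without released replicate 2.

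Genes of the pluripotent inner cells gave few calls. Of 25 tested, 2 were called higher and 0 lower (median -0.11), a share of 8.0% set beside 3.85% of all genes. Those called, Morc1 (2.03 ± 0.49, at least 1.15), a germline silencing gene, and Bmp4 (1.48 ± 0.23, at least 0.25), a signalling ligand, were close to background in controls. Both lost their calls without control replicate 2 (adjusted p 0.0808 for Bmp4 and 0.165 for Morc1), released replicate 1 (0.0518 and 0.112) or released replicate 2 (0.0563 and 0.228), and Morc1 also without control replicate 1 (0.147). Nanog, a factor of the epiblast, had 10.13 and 9.98 in released embryos, against 11.25 and 10.93 in controls (-1.04, interval -1.75 to -0.33, adjusted p = 0.0889). Pou5f1, which encodes the pluripotency factor Oct4, had 10.57 and 9.61 in released embryos, against 11.29 and 10.89 in controls (-1.0, interval -2.01 to 0.01, adjusted p = 0.245, and 0.0446 with the replicate block). Sox2, their partner, had 8.18 and 7.99 in released embryos, between the control values of 8.80 and 7.32 (0.03, interval -1.28 to 1.33). Nanog and Pou5f1 thus lay lower on both released arrays than on either control array, as did 29.7% of all tested genes. Neither passed the test, and Sox2 overlapped. The naive pluripotency factors Klf2 (-0.89, adjusted p = 0.217) and Esrrb (-0.67, adjusted p = 0.477) also did not pass. With the replicate block 4 genes of the list were called higher and 2 lower, Pou5f1 and Tbx3. Of 11 tested genes of the postimplantation epiblast none was called either way by limma (median -0.08), with 3 at an unadjusted p under 0.05 and 1 lower with the replicate block.

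The targets of the pathway that U0126 blocks were mostly not called. Of 22 tested ERK target and feedback genes, 2 were higher (9.09%, against 3.85% of all tested genes) and 0 lower (median 0.19). Egr1, an immediate-early transcription factor, had 5.31 and 5.74 in released embryos, against 3.57 and 3.04 in controls (2.22 ± 0.48, at least 0.53, adjusted p = 0.0252). Dusp6, the phosphatase that switches ERK off, had 5.87 and 6.60 in released embryos, against 4.72 and 4.55 in controls (1.60 ± 0.34, at least 1.24, adjusted p = 0.0211). Both control arrays were under 5 for each gene and the released arrays were above it. Spry4 (-0.21, interval -0.84 to 0.42), a feedback inhibitor, Myc (0.44, interval -0.18 to 1.06) and Ccnd1 (-0.33, interval -1.21 to 0.56) were not called, and both groups averaged under 5 for Spry4 and Ccnd1. Of 17 components of the cascade 1 was lower (with the block also 1 higher, the receptor gene Fgfr2, 1.23), Fgfr3, an FGF receptor, with 3.90 and 4.24 in released embryos, against 5.17 and 6.23 in controls (-1.63 ± 0.37, -0.70 counted from 5, adjusted p = 0.0306). Fgf4, the ligand, was not called (0.90, interval 0.08 to 1.72, adjusted p = 0.198). Its other probe sets gave 0.96 and, under 5 in both groups, 0.97 and -0.06. Without control replicate 2 the adjusted p of Egr1, Dusp6 and Fgfr3 lay between 0.183 and 0.294, and without released replicate 2 between 0.117 and 0.187. Egr1 and Fgfr3 had 0.0887 and 0.172 without released replicate 1, and Dusp6 had 0.0565 without control replicate 1.

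The calls among epithelial junction genes were rises. Of 29 tested, 4 were higher (13.8%, against 3.85% of all tested genes) and 0 lower (against 2.03%), with a median of 0.42. A difference above 0 was found in 25 of the 29, as in 4702 of all 9929 tested genes, and 5 were higher with the replicate block. Cldn3, a sealing claudin of tight junctions, had 8.23 and 7.10 in released embryos, against 5.18 and 4.45 in controls (2.85 ± 0.38, at least 2.57, adjusted p = 0.00287). Tjp3, a scaffold under tight junctions, had 8.71 and 8.81 in released embryos, against 6.56 and 6.08 in controls (2.43 ± 0.34, adjusted p = 0.00329). The desmosomal cadherin gene Dsc2 rose by 2.36 ± 0.45 and Slc9a3r1, a scaffold of the apical membrane, by 1.78 ± 0.36. The calls of Tjp3, Dsc2 and Slc9a3r1 were lost without control replicate 2 (adjusted p from 0.0527 to 0.186), and those of Dsc2 and Slc9a3r1 also without released replicate 1 (0.0767 and 0.0998) or released replicate 2 (0.101 and 0.122). The count of junction genes called higher was then 1 without control replicate 2 and 2 without either released array. The cadherin of compaction and the pumps of the blastocoel were high in both groups. Cdh1 had 11.59 and 11.88 in released embryos, against 11.50 and 11.19 in controls (0.39, interval -0.30 to 1.09). Atp1b1, a subunit of the sodium pump that helps fill the cavity, differed by 0.69 (interval -0.02 to 1.40), and Aqp3, a water channel, by -0.06 (interval -1.13 to 1.02).

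**Figure D3:**
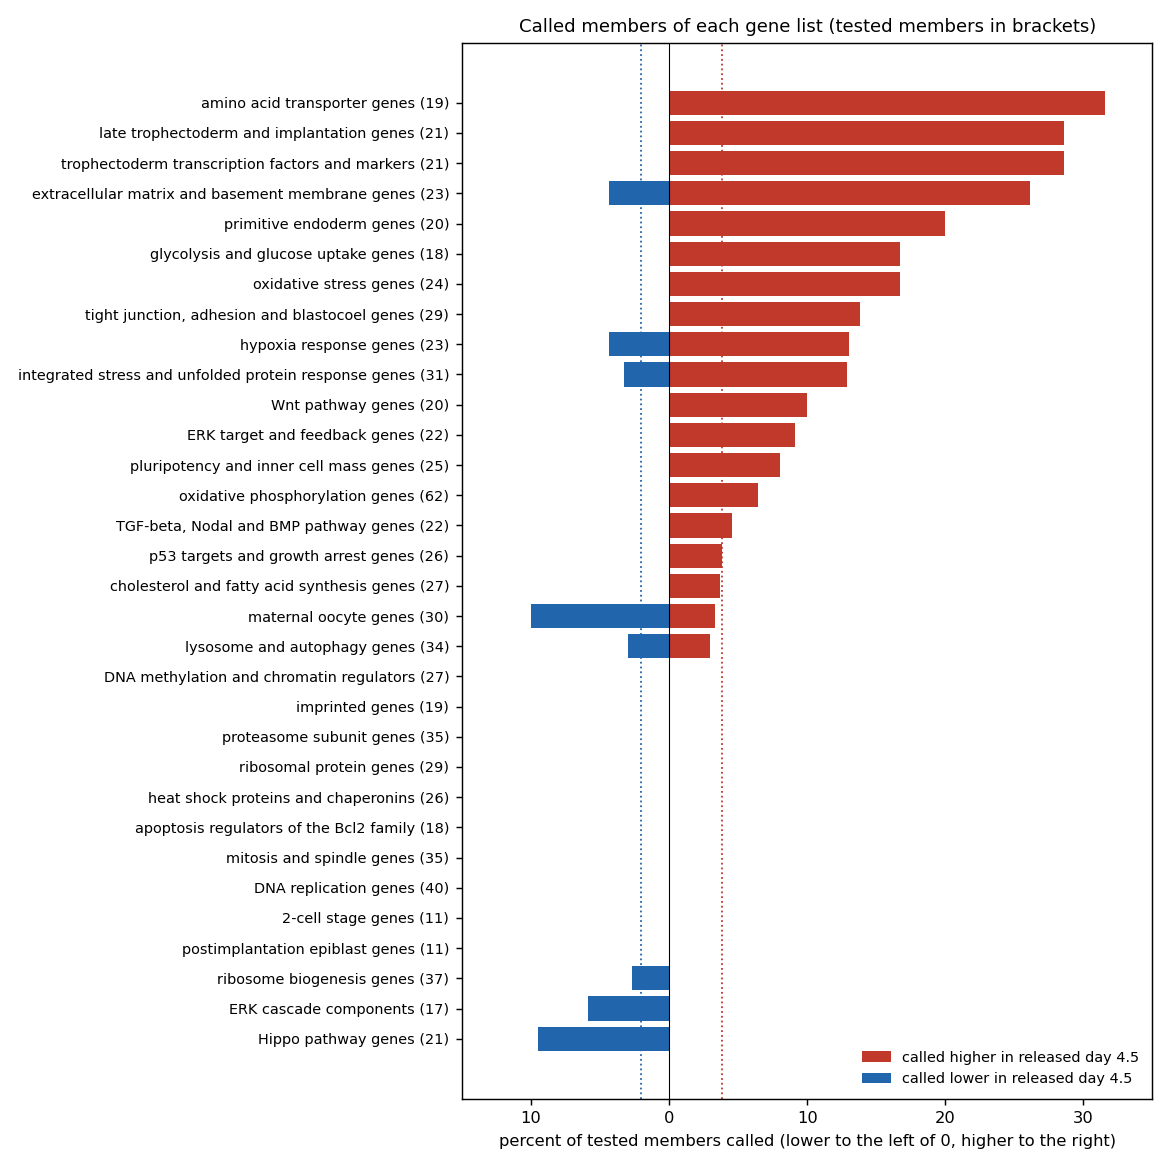
Percent of tested members of each gene list called higher (red, to the right of 0) or lower (blue, to the left of 0) in released day 4.5 than in control day 3.5 embryos, for lists with at least 10 tested members, whose number is in brackets. Dotted lines mark the shares of all tested genes, 3.85% higher and 2.03% lower. Amino acid transporter and trophectoderm genes have the longest red bars, and maternal oocyte and Hippo pathway genes the longest blue ones.

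Amino acid transport had the highest share of calls among the 36 lists of functional and marker genes, of those with at least 10 tested members. Of 19 tested transporter genes, 6 were higher (31.6%, against 3.85% of all tested genes) and 0 lower (against 2.03%), with a median of 0.89. The cationic amino acid transporter genes Slc7a1 (2.38 ± 0.59) and Slc7a3 (2.44 ± 0.39, at least 2.09) rose together with Slc7a7 (1.97 ± 0.34), which acts in exchange transport of arginine and lysine. Also called were Slc7a8 (2.03 ± 0.28, at least 0.37), a transporter of neutral amino acids, and Slc38a2 (2.33 ± 0.39), a sodium-coupled one. These are the 5 largest of the 6. Slc7a1 differed between the control arrays, with 9.29 and 9.67 in released embryos, against 8.21 and 5.99 in controls. Slc7a3 had 6.94 and 7.33 in released embryos, against 4.30 and 5.10 in controls. The related proline synthesis gene Aldh18a1 had 8.09 and 8.17 in released embryos, against 5.01 and 3.97 in controls (3.64 ± 0.45, at least 3.12, adjusted p = 0.00192). Other probe sets of these genes gave smaller differences, 1.84 and 0.77 for Aldh18a1 and 0.81 for Slc7a1. The difference of Slc7a1 was 1.27 without control replicate 2.

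Aldh18a1 and Slc7a3 are also members of the list for the integrated stress and unfolded protein responses. In it 4 of 31 genes were higher (12.9%, against 3.85% of all tested genes) and 1 lower (3.23%, against 2.03%), with a median of 0.38. With the replicate block 6 were higher and 3 lower. The stress-induced chromatin protein gene Nupr1 had 6.76 and 7.36 in released embryos, against 3.91 and 3.89 in controls (3.16 ± 0.37, at least 2.06, adjusted p = 0.00162). Ddit3, the stress factor CHOP, rose by 1.31 ± 0.31, whereas Psat1, an enzyme of serine synthesis, fell by 1.08 (SE 0.26). Without control replicate 2 the calls of Slc7a1, Slc7a7, Slc38a2, Ddit3 and Psat1 were lost (adjusted p from 0.0929 to 0.308), and without released replicate 2 these and Slc7a3 (0.0694 to 0.226). Without released replicate 1, Slc7a1, Slc7a7, Ddit3 and Psat1 lay between 0.0605 and 0.208, and without control replicate 1 Psat1 had 0.103. The count of transporter genes called higher was 2 without control replicate 2, 3 without released replicate 1 and 1 without released replicate 2, and the stress list had 2 without released replicate 2. Of 26 heat shock and chaperonin genes none was called (median -0.27), with 3 at an unadjusted p under 0.05 and 1 lower with the replicate block.

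Genes that handle peroxides and electrophiles had 4 of 24 called higher (16.7%, against 3.85% of all tested genes) and 0 lower (median 0.30). With the replicate block 5 were higher and 1 lower, the glutathione synthesis gene Gclm (-1.06). Gsta4, a glutathione transferase for lipid aldehydes, had 11.58 and 11.37 in released embryos, against 9.04 and 8.03 in controls (2.94 ± 0.41, adjusted p = 0.00329). Mgst3, a microsomal glutathione transferase, had 7.84 and 8.02 in released embryos, against 5.76 and 5.51 in controls (2.29 ± 0.28, adjusted p = 0.00172). The peroxidase gene Gpx3 (1.49 ± 0.36, both groups under 5 on average) and the peroxiredoxin gene Prdx2 (1.06 ± 0.25) were called, but not without control replicate 1 (adjusted p 0.0946 and 0.0715), control replicate 2 (0.274 and 0.280) or released replicate 1 (0.242 and 0.146). Prdx2 also had 0.199 without released replicate 2, and another of its probe sets gave 0.41. The difference of Gpx3 was 0.96 without released replicate 1. The list had 2 genes called higher without control replicate 1, control replicate 2 or released replicate 1. Hmox1, the inducible haem oxygenase, was not called (-1.39, interval -2.46 to -0.31, adjusted p = 0.130), and both groups averaged under 5.

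Oxidative phosphorylation genes had differences that were small and mostly of 1 sign. Of 62 tested oxidative phosphorylation genes, 61 had a difference above 0, as did 4702 of all 9929 tested genes. After median centring of the arrays these counts were 59 and 4181. The median was 0.52, against -0.03 over all tested genes. Of the 62, 4 were called higher (6.45%, against 3.85% of all tested genes) and 0 lower, and 12 were higher with the replicate block. The complex I genes Ndufb2 (1.38 ± 0.29), Ndufa13 (1.32 ± 0.30) and Ndufs4 (1.21 ± 0.29) and the complex III gene Uqcr10 (1.03 ± 0.26) were those called. A dim probe set of Ndufs4 differed in the other direction (-0.46), and another of Uqcr10 gave 0.27. Glycolysis and glucose uptake genes had 3 of 18 called higher and 0 lower (median 0.37, 11 above 0 and 7 below), and 4 higher and 1 lower with the replicate block. These were Tpi1, the triose phosphate isomerase (2.26 ± 0.37), Pdk1, a kinase that restrains entry of pyruvate into the mitochondrion (2.41 ± 0.59, at least 0.86, and 0.89 on another probe set), and Pfkp, a phosphofructokinase under 5 on all 4 arrays (1.36 ± 0.27). Tpi1 had 10.82 and 10.27 in released embryos, against 8.58 and 7.99 in controls. In the hypoxia list, which shares Ndrg1, Tpi1, Pdk1 and P4ha1 with other lists, 3 of 23 were higher and 1 lower. Its median was 0.03 (-0.03 after median centring), and 12 differences were above 0 and 11 below. With the replicate block 4 hypoxia genes were higher and 1 lower. Hmgcs1, an early enzyme of cholesterol synthesis, was the 1 gene of 27 called in its list (1.57 ± 0.36). The calls in energy and sterol metabolism were sensitive to leaving out arrays. Without control replicate 2, Ndufb2, Ndufa13, Ndufs4, Uqcr10, Tpi1, Pdk1, Pfkp and Hmgcs1 had adjusted p from 0.102 to 0.324, and all but Hmgcs1 of these had 0.0685 to 0.252 without released replicate 1. All but Tpi1 had 0.136 to 0.244 without released replicate 2. All but Tpi1 and Ndufb2 had 0.0506 to 0.127 without control replicate 1. Over these settings 0 to 1 oxidative phosphorylation genes, 0 to 1 glycolysis genes and 1 to 2 hypoxia genes were called higher.

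Ribosome biogenesis genes had mostly negative differences. Of 37 ribosome biogenesis genes, 35 had a difference below 0, as did 5227 of all 9929 tested genes, and the median was -0.81. Only 1 was called lower (2.70%, against 2.03% of all tested genes). It was Ddx21, a helicase of the nucleolus, with 8.38 and 7.75 in released embryos, against 9.92 and 9.72 in controls (-1.75 ± 0.40, adjusted p = 0.0293, and -0.79 on another probe set). With the replicate block 8 were called lower. Genes of ribosomal proteins, 29 tested, had a median of -0.02 and none called by limma, 0 at an unadjusted p under 0.05 and 0 with the block. For DNA replication genes the median was -0.33, with none of 40 called (5 at an unadjusted p under 0.05, and 3 lower with the block), and for mitosis genes -0.17, with none of 35 called (2 at an unadjusted p under 0.05, and 0 with the block). Of 26 p53 target and growth arrest genes 1 was called higher (3.85%, the same share as of all tested genes), and 4 with the block. It was Btg2, a brake on proliferation, with 8.27 and 8.02 in released embryos, against 5.90 and 5.81 in controls (2.29 ± 0.38). Cdkn1a, the p21 inhibitor of cyclin kinases, was not called (0.95, interval 0.21 to 1.69, adjusted p = 0.131). Ddx21 lost its call whichever of the 4 arrays was left out (adjusted p from 0.0710 to 0.218). Btg2 lost it without control replicate 2 (0.0835) or released replicate 1 (0.0645). None of 18 Bcl2-family, 35 proteasome, 19 imprinted or 27 chromatin genes was called by limma. At an unadjusted p under 0.05 there were 3, 3, 5 and 6 of these, and with the block 0 to 1 in each list.

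Signalling and Hippo genes gave few calls, to be set beside shares of 3.85% higher and 2.03% lower over all tested genes. Of 20 Wnt pathway genes 2 were higher, Wnt6 with 5.56 and 5.98 in released embryos, against 3.54 and 3.63 in controls (2.19 ± 0.27, at least 0.77), and Wnt3a (1.31 ± 0.28, at least 1.23), and 3 were higher and 1 lower with the replicate block. Another probe set of Wnt6 gave 1.37. In the TGF-beta, Nodal and BMP list 1 of 22 was higher, Bmp4, and 2 were higher with the block. Of 21 Hippo pathway genes 2 were lower, the YAP target Ccn2 (-1.44 ± 0.35) and the kinase Lats1 (-1.06 ± 0.25). Ccn2 had 7.47 and 7.86 in released embryos, against 9.02 and 9.19 in controls. Another probe set of Lats1, under 5 in both groups, gave -0.01. With the block 3 Hippo genes were lower, Tead4 added, and 1 higher, Tead2 (1.79). In the lysosome and autophagy list 1 of 34 was higher, the galactosidase gene Glb1 (1.65 ± 0.30), and 1 lower, Atg7 (-1.31 ± 0.32, and -0.34 on another probe set), an enzyme of autophagosome formation, and 4 were lower with the block. Wnt3a, Ccn2, Lats1 and Atg7 lost their calls whichever of the 4 arrays was left out (adjusted p from 0.0542 to 0.310), and Glb1 without control replicate 2 (0.137), released replicate 1 (0.0653) or released replicate 2 (0.105).

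The largest falls were smaller than the largest rises, and the genes differ in function. Tent5c, a poly(A) polymerase that stabilises messenger RNA, had 5.95 and 5.44 in released embryos, against 8.66 and 9.92 in controls (-3.60 ± 0.45, adjusted p = 0.00196). Stmn3, a stathmin that binds tubulin, had 6.77 and 6.15 in released embryos, against 9.25 and 10.35 in controls (-3.34 ± 0.37, adjusted p = 0.00147). Bhmt2, an enzyme of methionine metabolism, had 7.20 and 7.13 in released embryos, against 9.70 and 10.66 in controls (-3.01 ± 0.39, adjusted p = 0.00250). Each of these was at a similar level in released day 3.5 and control day 3.5 embryos, with Tent5c at 10.46 and 9.74, Stmn3 at 10.73 and 10.56 and Bhmt2 at 10.28 and 10.78 in released day 3.5 embryos. The pyridoxal kinase gene Pdxk (-2.91 ± 0.37, with other probe sets at -3.07 and -0.34), the peptidase gene Naalad2 (-2.46 ± 0.26), the RNA-binding gene Larp1b (-2.44 ± 0.30) and the lipid droplet enzyme gene Pnpla3 (-2.50 ± 0.30, -2.30 counted from 5) were lower too. Also lower were the thioesterase gene Ppt2 (-2.38 ± 0.33), Prelid2 (-2.34 ± 0.31), and the alkaline phosphatase gene Alppl2 (-2.35 ± 0.42). Tfrc, the transferrin receptor that brings in iron, had 9.97 and 9.27 in released embryos, against 11.48 and 12.32 in controls (-2.28 ± 0.43), and its other 5 probe sets gave -1.0 to -2.64. The centrosome gene Nin (-2.41 ± 0.52), Tceal8 (-3.04 ± 0.69) and the aldo-keto reductase gene Akr1c14 (-2.97 ± 0.50, -2.45 counted from 5) complete the group. Other probe sets of Nin gave -1.99 and, under 5 in both groups, -0.08. Nin, Tceal8, Akr1c14, Alppl2, Tfrc and Obox6 lost their calls without control replicate 2 (adjusted p from 0.0597 to 0.202) or released replicate 2 (0.0809 to 0.219). The difference of Nin was -1.51 without control replicate 2. Nin and Obox6 lost their calls also without released replicate 1 (0.0717 and 0.128), and Tceal8 without control replicate 1 (0.115).

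Genes of the maternal oocyte list were among the falls. Of 30 tested maternal genes 3 were lower (10%, against 2.03% of all tested genes) and 1 higher (median -0.34), and 4 were lower with the replicate block. Obox6, an oocyte homeobox gene, had 6.60 and 6.93 in released embryos, against 8.37 and 11.01 in controls (-2.92 ± 0.63), with the control arrays far apart. Ddx4, a germ cell helicase, differed by -1.98 ± 0.44 and Nlrp14 by -1.77 ± 0.32 (-0.46 counted from 5). In controls the mean of Nlrp14 went from 12.93 at day 1.5 to 5.46 at day 3.5. Ddx4 had control means of 8.63, 8.52 and 8.87 at days 1.5, 2.5 and 3.5, and Obox6 had 12.39, 13.22 and 9.69. Obox6 and Ddx4 differed by -1.60 and -1.25 without control replicate 2. Tcl1, a cofactor of Akt kinases, was higher by 1.14 ± 0.26, with 6.17 and 6.41 in released embryos, against 5.13 and 5.16 in controls. All of these lost their calls without control replicate 2 (adjusted p from 0.0597 to 0.249), released replicate 1 (0.0605 to 0.152) or released replicate 2 (0.103 to 0.215), and Tcl1 also without control replicate 1 (0.102). Gdf9 and Zp3, further oocyte genes, were not called (-0.64, interval -1.50 to 0.22, and -1.0, interval -2.03 to 0.03), and both groups averaged under 5 for each. Of 11 genes of the 2-cell stage none was called higher or lower by limma, with or without the block, 5 had an unadjusted p under 0.05, and the median was 0.81. Zfp352 of this group had 7.10 and 4.34 in released embryos, against 2.94 and 4.07 in controls (2.21 ± 0.79, at least 1.05, adjusted p = 0.136), and 9.50 and 9.74 in released day 3.5 embryos.

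Arrays outside the comparison place the called genes in the study's course. Of the 382 genes called higher, 306 lay above all 10 other arrays on both released day 4.5 arrays, which 12.5% of all tested genes did. Of the 202 called lower, 132 lay below all 10, as did 10.5% of all tested genes. In part this follows from the choice, since the control day 3.5 arrays are among the 10. The median level of the 382 genes was 5.15 under U0126 at day 2.5, 6.01 at released day 3.5 and 7.92 at released day 4.5, and in controls 4.86 at day 1.5, 4.71 at day 2.5 and 5.76 at day 3.5. The median of the 202 genes was 8.57, 8.43 and 6.63 in the U0126 and released groups, and 8.33, 8.76 and 8.21 in controls of day 1.5, 2.5 and 3.5. Released day 3.5 embryos lay nearer to control day 3.5 than to released day 4.5 in 355 of the 382 and in 193 of the 202, against 71.7% of all tested genes. In 109 of the 382 both control arrays were under 5, and in 49 of the 202 both released arrays were.

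**Figure D4:**
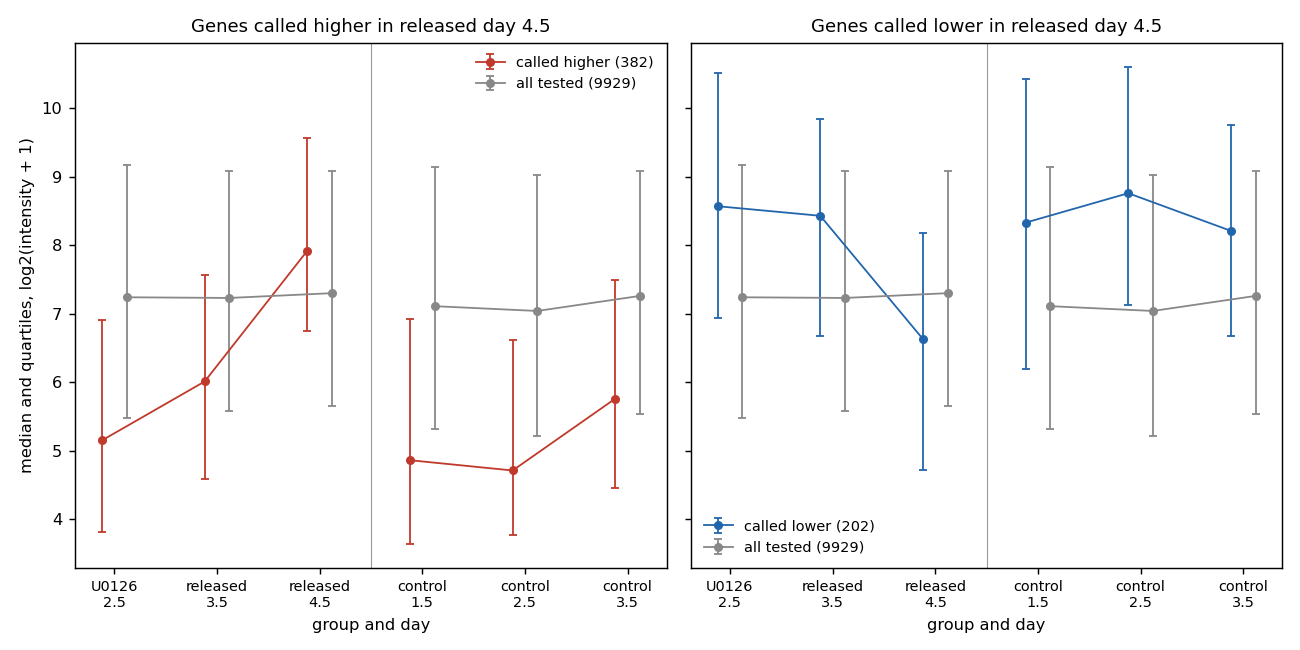
Median level over genes, as log2(intensity + 1), in each group, with bars for the quartiles over genes, for the 382 genes called higher (left panel) and the 202 called lower (right panel) in released day 4.5 embryos. Grey points are all 9929 tested genes, and in each panel U0126 and released embryos stand left of controls. The 382 genes have their highest median, 7.92, and the 202 genes their lowest, 6.63, at released day 4.5.

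The earlier pair, released day 3.5 (8 cells) against control day 2.5 (4 to 8 cells), was matched by labelled stage only. Krt8 averaged 13.18 at released day 3.5, 9.59 at control day 2.5 and 13.41 at control day 3.5. For Cdx2 these means were 9.18, 7.41 and 9.66, and for Zfp352 9.62, 5.74 and 3.51. Whether the earlier pair was equally advanced was not tested. Its differences use none of the 4 arrays of the main comparison. The SE comes from the same fit over all 12 arrays, so the calls of the pairs are not independent. In the earlier pair 1252 genes (12.6%) were called, 854 higher (8.60%) and 398 lower (4.01%). Of the 382 genes higher in released day 4.5 embryos, 133 (34.8%) were also higher at released day 3.5 and 10 were lower, with a median difference of 0.87. The 133 are 15.6% of the 854. Of the 202 genes lower in released day 4.5 embryos, 22 (10.9%) were lower in the earlier pair and 9 higher (median -0.35). The 22 are 5.53% of the 398. Named genes called higher in both pairs included Slc15a2 (3.21 in the earlier pair, adjusted p = 0.00651), Dmkn (2.41, adjusted p = 0.00454), Tmprss2 (3.74, adjusted p = 0.00366), Krt7 (2.08, adjusted p = 0.00395), Sparc (2.65, adjusted p = 0.00346) and Tpi1 (2.58, adjusted p = 0.00297). Elf5 (0.66, adjusted p = 0.341), Sox17 (0.38, adjusted p = 0.680), Mbnl3 (0.39, adjusted p = 0.568), Gulp1 (0.32, adjusted p = 0.746) and Lif (-0.32, adjusted p = 0.476) were not called in it. Cdx2 (1.77), Krt8 (3.59) and Nanog (2.24), which were not called at day 4.5, were higher in released embryos at the earlier pair (adjusted p = 0.0111, 0.00139 and 0.00292). The arrested embryos themselves, U0126 day 2.5 against control day 2.5, had 915 genes higher (9.22%) and 468 lower (4.71%). Of the 382 genes 38 (9.95%) were higher and 22 (5.76%) lower in them, and of the 202 genes 12 (5.94%) were higher and 19 (9.41%) lower, against 9.22% and 4.71% of all genes. The last 2 comparisons share the control day 2.5 arrays.

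**Figure D5:**
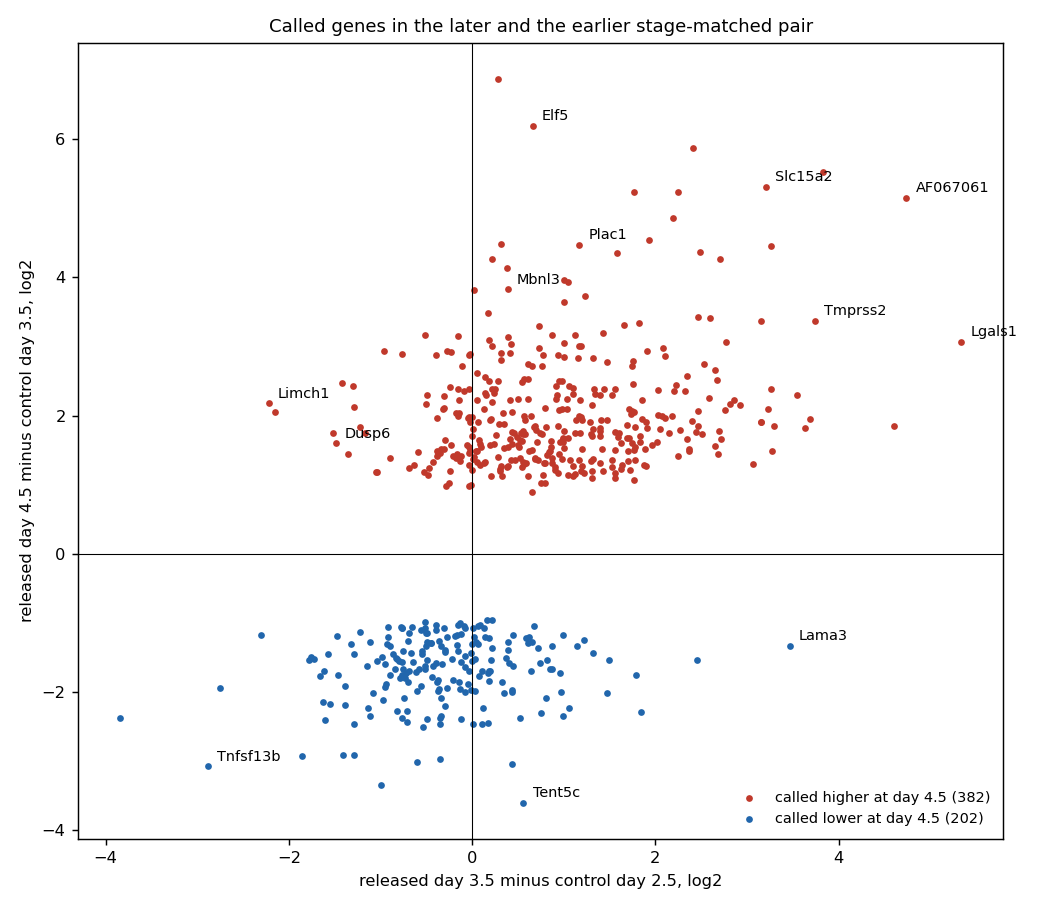
Difference of each called gene in released day 4.5 against control day 3.5 embryos (vertical axis, log2) and in released day 3.5 against control day 2.5 embryos (horizontal axis, log2). Red points are the 382 genes called higher and blue points the 202 called lower at day 4.5. Slc15a2 and AF067061 lie high on both axes, Elf5 and Mbnl3 lie high on the vertical axis near 0 on the horizontal one, and Dusp6 lies to the left of 0.

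Most markers of other cells that could come along with collected embryos were at or near background. Of 15 markers of cumulus and granulosa cells 1, Nr5a2, reached 5 on any of the 4 arrays, and their summed intensity was 1130 to 1300 in released embryos and 1350 to 1710 in controls. Of 10 sperm markers none reached 5 (sums 81.7 to 93.8 and 86.6 to 88.8), and of 12 blood and immune markers 1 did, Cd68 (sums 120 to 133 and 123 to 127). Of 14 markers of oviduct and uterine epithelium 2 reached 5, Lif and Fxyd4, a regulator of the sodium pump, and both were called higher in released embryos, with summed intensities of 347 to 388, against 196 to 220 in controls. Fxyd4 had 7.68 and 7.31 in released embryos, against 6.12 and 6.11 in controls (1.38 ± 0.30), and lost its call without control replicate 1 (adjusted p = 0.0795), control replicate 2 (0.181), released replicate 1 (0.163) or released replicate 2 (0.0936). The rest of the oviduct and uterine list did not reach 5 on any of the 4 arrays. The ciliated-cell factor Foxj1 and Pax8 lay between 2.80 and 2.92 in released embryos, and at 2.79 to 3.45 in controls.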

How the data were processed

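RNA of ICR mouse embryos was measured on 12 Affymetrix Mouse Genome arrays with 2 amplification rounds in labelling, per the labels' protocols. The submitters' processing notes name GCRMA, and the series text GCOS 1.2 and GeneSpring 7.3, whose steps are not given in the sources used here. Each probe set has a deposited intensity on a linear scale, with array medians of 10.8 to 11.5, and their number limits the precision (median SE 0.35).

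Of 45101 probe sets, 34958 had 1 gene symbol, 932 several and 9211 none (neither used). Each of 18193 genes was read from its brightest probe set. From the deposited values log2(intensity + 1) was taken, without further normalization. Genes at 5 or more on at least 2 arrays (9929) were fitted with limma 3.58.1 (R 4.3.3; lmFit, contrasts.fit, eBayes) as 6 group means over 12 arrays, 2-sided, with Benjamini-Hochberg adjustment over all tested genes. Errors are SE. Pooling gave 6 residual degrees of freedom plus 4.51 from the prior. Scripts were tested on simulated data.

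Deviations of replicate 1 from its group mean correlated in all 15 pairs of groups (r from 0.125 to 0.417, 0.258 for the 2 compared), so replicate numbers were taken to pair the samples, and blocked values are given where they change a call or a list count.

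Named were the 15 largest rises and falls among called genes without overlap (levels raised to 5, clone names skipped), up to 5 called members each way of 36 lists, and a set of lineage and pathway genes whatever their result. Members and lists were chosen with earlier results of these data known. Alternatives were the offset, filter, scaling, probe set rule, variance prior, arrays in the fit, block and leaving out arrays.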

Additional observations from a re-analysis of the deposited data

Results flagged for a closer look

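Dusp6, the phosphatase gene induced by ERK, was singled out because its difference changed sign between the pairs matched by labelled stage. It was higher in released day 4.5 than in control day 3.5 embryos (1.60, adjusted p = 0.0211) and lower in released day 3.5 than in control day 2.5 embryos (-1.49, adjusted p = 0.0182). The later difference minus the earlier one was 3.09 ± 0.47 (limma, adjusted p = 0.0129), a contrast added after the data were seen and for a gene chosen for its opposite calls, so the p is no independent evidence. The levels were 5.87 and 6.60 at released day 4.5, against 4.72 and 4.55 at control day 3.5, and 4.89 and 4.54 at released day 3.5, against 6.46 and 5.95 at control day 2.5. In the later pair the call of Dusp6 was lost without control replicate 1 (adjusted p = 0.0565), control replicate 2 (0.183) or released replicate 2 (0.187).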

How the results depend on the processing

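The count of 584 genes called between released day 4.5 and control day 3.5 embryos became 313 with the 4 arrays alone, 1017 with the replicate block and 1329 with the block and the 4 arrays alone. Leaving out 1 array gave 84 to 541. An offset of 16, no filter, a stricter filter at a level of 7, median centring, the mean of probe sets and a trended robust prior gave 495 to 730. Released day 3.5 against control day 2.5 had 1252 calls, 2017 with the replicate block and 267 to 576 with 1 array left out. U0126 against control day 2.5 had 1383 calls, none with the 4 arrays alone by limma (2245 at an unadjusted p under 0.05) and 0 with the block and those 4 arrays (2742 at an unadjusted p under 0.05), and 409 to 1183 with 1 array left out. The cause was not tested. Fits to 4 arrays alone have fewer residual degrees of freedom. They gave 313 calls for released day 4.5 against control day 3.5 and 868 for released day 3.5 against control day 2.5. No named gene changed sign past the threshold under any alternative run. Of 113 named genes with a value, 88 were called, and 34 of these kept the call whichever array was left out. With each array out the differences of the 88 kept their sign and at least 53.3% of their size. Without control replicate 2, 52 lost it, without released replicate 2 48, without released replicate 1 42 and without control replicate 1 21. With the 4 arrays alone 26 lost it, without a filter 19, with the mean of probe sets 7, with an offset of 16 5, with the trended robust prior 2 and with median centring 1. The replicate block ended none and added 2, Pou5f1 and Pdgfra, and the block with the 4 arrays alone added 5. The offset of 16, the stricter filter, the mean of probe sets and the trended robust prior each added 1. Leaving out control replicate 1 added Klf2 and Pdgfra, and leaving out released replicate 2 added Zfp352, in fits with 1 array in a group. An n of 2 arrays a group limits the comparison. For 109 genes called higher and 49 called lower 1 group had no array at 5, so the size of their difference rests on background. Of 36 called named genes with several probe sets above the filter, 14 had another probe set with a difference smaller by over 1.5 times and 1 of these, Ndufs4, one of the other sign.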

Other observations

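Gene families taken whole by symbol, and chosen after the values had been seen, add calcium-binding and actin genes to the account, so their counts are descriptions, beside 3.85% of all tested genes called higher and 2.03% lower. Of 8 tested annexin genes, which bind membranes in a calcium-dependent way, 5 were called higher in released day 4.5 embryos (Anxa1, Anxa2, Anxa3, Anxa5 and Anxa6) and 0 lower. Without single arrays 1 to 3 of them were called. Of 4 tested S100 genes 3 were higher (S100a6, S100a10 and S100a16), against 0 to 2 without single arrays, and of 4 tropomyosin genes 3 (Tpm1, Tpm2 and Tpm4), against 0 to 1. The nonmuscle myosin genes Myh9 and Myh10 were both called, 3 of 6 class I myosin genes were higher (Myo1a, Myo1c and Myo1e) and 2 of 6 Arp2/3 genes (Arpc2 and Arpc5), against 0 to 1, 0 to 2 and 0 without single arrays. Of 10 glutathione transferase genes 4 were higher (Gsta4, Gstk1, Gstm2 and Mgst3), against 3 to 5. Of 5 galectin genes 2 were higher and 1 lower (median -0.02), and of 4 long-chain acyl-CoA synthetase genes 2 were higher and 1 lower. Of 9 keratin genes 1 was higher (Krt7), and of 4 Obox genes 1 was lower (Obox6). With the replicate block 4 class I myosin genes were higher and 1 lower, and 2 keratin genes were higher.

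Of 175 tested solute carrier genes 18 were higher (10.3%) and 8 lower (4.57%), against 5 to 16 higher and 0 to 6 lower without single arrays, with a median of 0.10. Of 6 genes of the Slc7 family 5 were higher, against 1 to 4. Of 31 genes of the mitochondrial Slc25 family 0 were higher and 4 lower (Slc25a12, Slc25a20, Slc25a33 and Slc25a41), against 0 to 3 lower without single arrays, while 16 of the 31 had a difference above 0 and 15 below. Of 210 tested Zfp genes, most of which encode zinc finger factors, 0 were higher and 7 lower (3.33%), against 0 to 3 lower without single arrays, with a median of -0.21.

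With the replicate block 21 solute carrier genes were higher and 12 lower, 1 Slc25 gene was higher and 5 lower, and 14 Zfp genes were lower. A clone-named gene that the naming rule skipped, Gm4926, had the largest fitted difference, 6.87 ± 0.37 (at least 5.86, adjusted p = 2.41e-05). It had 10.51 and 11.22 in released embryos, against 4.07 and 3.92 in controls. Genes called in opposite directions in the pairs matched by labelled stage numbered 10 among those higher and 9 among those lower at day 4.5. The sizes below are descriptions because the genes were chosen for this. Lama3, a laminin chain of epithelia, was lower at released day 4.5 (-1.33, adjusted p = 0.0252) and higher at released day 3.5 (3.47, adjusted p = 4.90e-04), a difference of -4.80 ± 0.41. Cebpa, a transcription factor of differentiating epithelia and other cells, was higher at released day 4.5 (1.74) and lower at released day 3.5 (-1.52), a difference of 3.27 ± 0.49.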
